A study of Mus musculus with 9 samples.

Results

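The 38 genes described here are imprinted genes of the mouse, measured in 3 regions of the E10.5 tail. They were chosen by name, from gene lists of known imprinted domains, and every array probe annotated to one of them was taken. The array carried 88 probes for 35 of the 38 genes, out of 45281 probes in all, and no probe was annotated to H19, Snrpn or Zrsr1. A probe was tested if, in at least 1 region, every one of its 3 arrays showed a signal above the negative controls (detection p under 0.01). That held for 33 probes of 19 imprinted genes, among 12437 tested probes of the whole array.

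The regions were the chordoneural hinge (CNH), where neural tube and notochord meet at the tip of the axis and where axial progenitors lie, the tailbud mesoderm (TBM) beside it, and the presomitic mesoderm (PSM), from which somites form. The embryos carried no genetic change or treatment that the labels name. Dissected pieces were pooled by region, and biotin-labelled cRNA from the pools of each region was hybridised to 3 Illumina Ref6v2 BeadArrays. The methods describe 2 of the 3 replicates of a region as biological and 1 as technical without saying which, and name CD1 and C57Bl/6J mothers without assigning them to samples. The fits and SDs below treat the 3 arrays as independent, which overstates the evidence to that extent.

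An imprinted gene is transcribed mainly or only from the copy inherited from 1 parent. The silent copy is set by DNA methylation laid down in the germline at an imprinting control region, and clusters of genes, often with a long noncoding RNA, share such a region. Many imprinted genes act on embryonic and placental growth. In general the paternally expressed ones favour growth and the maternally expressed ones restrain it, with Igf2 and its clearance receptor Igf2r as the classic opposed pair. An array of this kind measures the RNA of both copies together, so it shows how much RNA a gene gave and not which allele gave it.

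By their usual parental expression in the mouse, 18 of the 38 genes were placed in a paternally expressed class and 11 in a maternally expressed class. The other 9 are imprinted only in some tissues or for some transcripts. They are Gnas, Ube3a, Copg2, Ascl2, Cd81, Ppp1r9a, H13, Commd1 and Dhcr7, here called the restricted class. The tested genes comprised 8 paternally expressed, 4 maternally expressed and 7 restricted ones.

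Through the brightest probe of each gene, 4 imprinted genes changed between regions: Cdkn1c, Phlda2, Igf2r and Peg3. A dimmer probe of Gnas also changed, and is described with that gene. Their promoters are shown because these are the members whose RNA differed along the tail, and because the cytosines of CG pairs are the bases on which imprinting marks are written. Each line gives the 150 bases before the annotated start of a gene, from RefSeq on build GRCm38.p6, with every CG pair in capitals. The promoter table held no entry for Cdkn1c under that name.
Igf2r: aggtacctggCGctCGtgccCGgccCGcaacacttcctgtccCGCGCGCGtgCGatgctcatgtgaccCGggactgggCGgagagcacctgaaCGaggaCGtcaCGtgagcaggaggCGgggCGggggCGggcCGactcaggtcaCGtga
Peg3: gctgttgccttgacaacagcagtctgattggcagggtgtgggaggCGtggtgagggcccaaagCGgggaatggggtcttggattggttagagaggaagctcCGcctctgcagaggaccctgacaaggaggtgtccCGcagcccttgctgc
Phlda2: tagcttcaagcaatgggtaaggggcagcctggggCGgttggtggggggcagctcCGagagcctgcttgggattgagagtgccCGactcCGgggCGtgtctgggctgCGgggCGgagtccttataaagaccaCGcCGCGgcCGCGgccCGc

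The Igf2r stretch lies at chr17:12769707-12769856 on the minus strand and held 19 CG pairs. That of Phlda2 lies at chr7:143502525-143502674, also on the minus strand, and held 13. The Peg3 stretch, at chr7:6730420-6730569 on the minus strand, held 4. The median over all 32851 promoters of the table was 4.0 CG pairs in a window of this length, against 9.0 over the 49 promoters matched to 31 of the imprinted genes. In the 250 bases before the start, the median GC content was 60.0% for the imprinted genes and 52.4% for all promoters. The windows were taken as promoters, and whether any of them lies within an imprinting control region was not determined here.

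Both strands of the 250 bases were searched for 2 motifs. TGCCGC, the core that the imprint-protecting zinc finger protein ZFP57 recognises, was present in 8 of the 49 promoters of imprinted genes (16.33%), against 8.68% of all promoters. The 8 belonged to Copg2, Dhcr7, Mcts2, Meg3, Mest, Plagl1 and Zim1, none of which was among the 4 genes that changed, though Cdkn1c could not be searched. Of the 8, 2 were overlapping Mest windows, starting at 30737800 and 30737803, that held the same sites. TGCCGC itself holds a CG pair, and promoters of the imprinted genes held more CG pairs than all promoters, as given above. GGGGCCCC, a motif of the imprinted zinc finger protein PLAGL1, was present in the promoters of Peg3 and Ppp1r9a (2 of 49, 4.08%), against 0.89% of all. A match is a run of letters and no evidence of binding.

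Arrays of replicate 3 had a lower median signal (63.0 to 67.1) than those of replicates 1 and 2 (76.8 to 80.4), and 30.1% to 32.7% of probes were detected per array. Replicate 3 stood apart in all 3 regions. Of all tested probes, 2810 (22.6%) differed more than 2-fold between replicate 3 and the mean of replicates 1 and 2 in every region, and 12 of the 33 tested probes of imprinted genes did (36.4%). The replicate number therefore entered the model as a block, and differences between regions were taken within a replicate. After centring by region, arrays of different regions correlated at 0.858 to 0.898 within numbers 1 and 2, and at 0.863 to 0.893 between them. No match of arrays across regions was thus visible within these 2 numbers. Values given below within replicates 1 and 2 follow the numbers in the titles. In region markers, 12 of 12 tested axial progenitor genes were higher in CNH than in PSM, and 5 of 5 tested somite genes and 4 of 6 tested presomitic genes were lower. The marker lists were written with earlier results of these data known. Several of the axial progenitor genes, such as Fgf8, T and Wnt3a, were reported by the authors as CNH-enriched on these same arrays. The counts are therefore a description and no independent check of the dissection. By the same rule, given below, 6.66% of all tested probes were called higher in CNH and 4.54% lower. Lfng, a presomitic clock gene, was detected on no array.

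Of the 35 genes with a probe, 19 were tested, 8 were detected on some arrays only and 8 on none. The 8 genes without a detected probe were Rtl1 and Sgce (paternally expressed, a retrotransposon-derived gene and a sarcoglycan), Magel2, Mcts2, Zim1, the transporter gene Slc22a18, Asb4 and Ascl2. Ascl2 encodes a transcription factor of the placenta, and Asb4 a part of a ubiquitin ligase. A probe that is not detected gives only an upper bound on the signal, and says nothing on whether the gene is silent.

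In the Dlk1-Meg3 domain of chromosome 12, Dlk1, which encodes a membrane protein of the Notch ligand family, was detected on all 9 arrays. Its maternally expressed noncoding neighbours were near background. Meg3 was detected on 1 array, of TBM, and Rian on 2, replicate 3 of CNH and replicate 3 of TBM. The Rian log2 signals were 4.45, 4.44 and 5.79 in CNH, 4.61, 4.57 and 5.60 in TBM, and 4.46, 4.33 and 4.69 in PSM. The paternally expressed Dio3, which encodes a deiodinase that inactivates thyroid hormone, was also detected on replicate 3 of CNH and of TBM only. Its log2 signals were 4.50, 4.76 and 5.63 in CNH, 4.76, 4.39 and 5.37 in TBM, and 4.57, 4.37 and 4.68 in PSM.

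The other 5 genes with partial detection showed the same low signals. Plagl1, a zinc finger gene that regulates other imprinted genes, was detected on 1 CNH array. Peg10, Usp29 and Kcnq1 were each detected on 1 PSM array. Ube3a, which encodes a ubiquitin ligase and is imprinted in neurons, was detected on 6 arrays through its best probe, 2 in each region, and these were replicates 1 and 2 throughout.

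**Figure D1:**
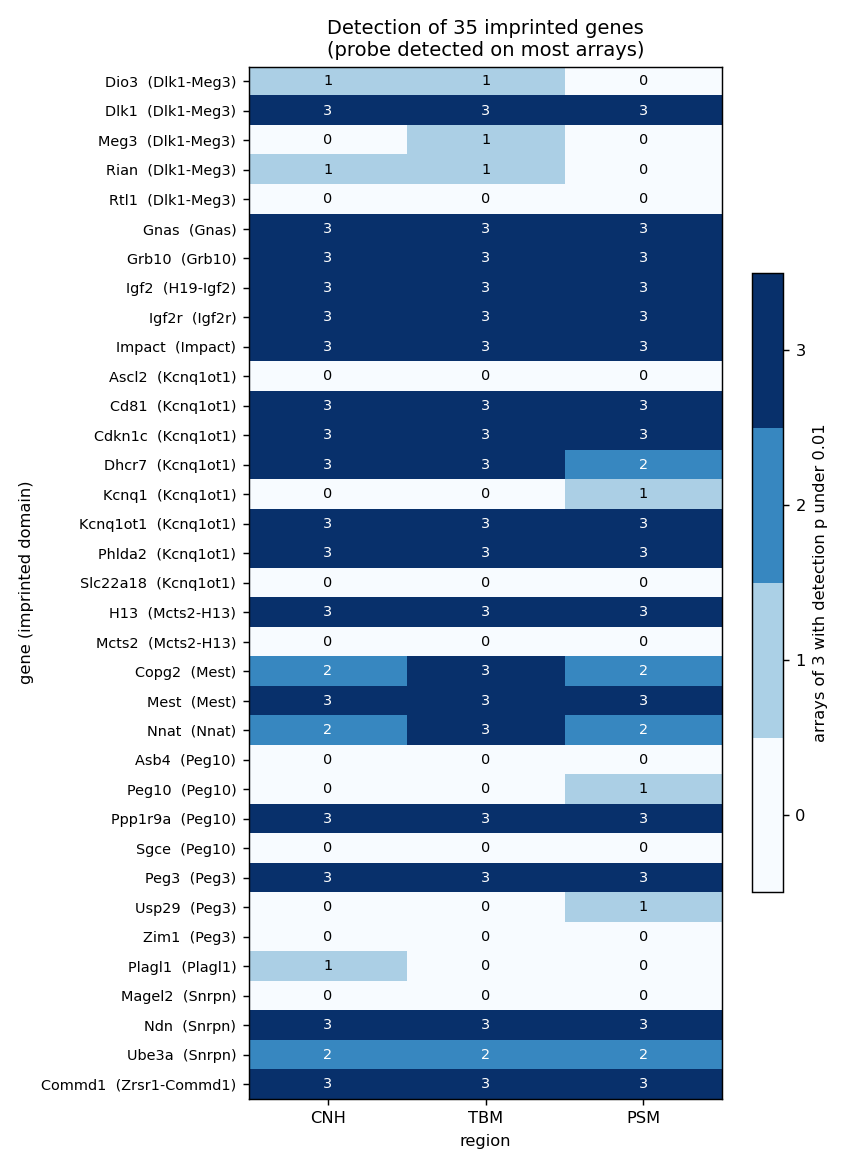
Number of arrays of 3, in CNH, TBM and PSM, on which each of the 35 imprinted genes with a probe was detected (detection p under 0.01), with the imprinted domain in brackets and the probe detected on most arrays standing for a gene. The 19 tested genes have 3 of 3 in at least 1 region, and the Dlk1-Meg3 domain shows 3 of 3 for Dlk1 alone.

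In CNH against PSM, which asks what sets progenitor-bearing tissue apart from tissue about to form somites, the growth restrainers Cdkn1c and Phlda2 were higher in CNH, by 2.24-fold and 3.01-fold. The receptor gene Igf2r and the zinc finger gene Peg3 were lower in CNH, by 1.73-fold and 2.12-fold. A gene was called where limma's adjusted p over all tested probes was under 0.05 and the change was at least 1.5-fold. By that rule 4 of 19 imprinted genes (21.1%) were called in CNH against PSM, beside 11.2% of all tested probes. For calls higher in CNH the counts were 2 of 19 genes beside 6.66% of probes, and for calls lower 2 of 19 beside 4.54%.

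Cdkn1c encodes the cyclin-dependent kinase inhibitor p57, which stops the cell cycle and is expressed from the maternal copy. Its log2 signals were 12.28, 12.43 and 13.10 in CNH, 11.87, 11.90 and 12.61 in TBM, and 11.36, 11.38 and 11.58 in PSM. Every CNH and TBM array lay above every PSM array, while CNH and TBM overlapped. CNH exceeded PSM by 1.16 on the log2 scale (SE 0.14, adjusted p = 0.000205), by 0.92, 1.05 and 1.52 within the 3 replicates. Group values were 12.61 ± 0.44 in CNH, 12.13 ± 0.42 in TBM and 11.44 ± 0.12 in PSM (SD, n = 3).

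TBM exceeded PSM for Cdkn1c by 0.69 (1.61-fold, SE 0.14, adjusted p = 0.00664), and this difference was 1.03 in replicate 3 against 0.51 and 0.52 in the others. Without PSM replicate 3 it was 0.51, below the fold limit, and without replicate 3 of all regions 0.52. CNH exceeded TBM by 0.48 (95% interval 0.18 to 0.78, adjusted p = 0.165), which is no call, although all 3 replicates gave a positive value (0.41, 0.53 and 0.49). The order of the levels was thus CNH, TBM and PSM within every replicate.

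Phlda2, a neighbour of Cdkn1c, encodes a pleckstrin homology protein that limits placental growth and is also expressed from the maternal copy. On chromosome 7 the annotation places 2 genes between them, Gm33663 and the undetected Slc22a18, and the 3 imprinted genes answer to the control region from which Kcnq1ot1 is transcribed. The Phlda2 log2 signals were 7.06, 7.08 and 7.49 in CNH, 7.41, 7.63 and 7.91 in TBM, and 5.22, 4.99 and 6.64 in PSM. PSM lay below both other regions on every array, and its replicate 3 was the nearest to them. Means were 7.21 ± 0.24 in CNH, 7.65 ± 0.25 in TBM and 5.62 ± 0.89 in PSM (SD, n = 3).

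Phlda2 was higher in CNH than in PSM by 1.59 on the log2 scale (SE 0.23, adjusted p = 0.000766), and by 1.83, 2.09 and 0.85 within replicates. In TBM against PSM the difference was 2.03 (4.08-fold, SE 0.23, adjusted p = 0.000203). Here TBM and not CNH had the highest level, unlike Cdkn1c: CNH minus TBM was -0.44 (95% interval -0.95 to 0.07, adjusted p = 0.475), negative in all 3 replicates but not called.

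Igf2r encodes the receptor that carries IGF2 to the lysosome, and in the mouse is expressed from the maternal copy. Its brighter probe gave 7.95, 7.94 and 9.06 in CNH, 8.11, 7.84 and 9.33 in TBM, and 8.72, 8.62 and 9.99 in PSM (log2 signals). The groups overlapped, because replicate 3 was more than 1 unit higher in all regions, but within each replicate PSM was the highest. CNH minus PSM was -0.79 (SE 0.11, adjusted p = 0.000719), and -0.78, -0.67 and -0.93 within replicates. TBM minus PSM was -0.68 (adjusted p = 0.00223), which makes TBM 1.60-fold lower. The means were 8.32 ± 0.64 in CNH, 8.43 ± 0.79 in TBM and 9.11 ± 0.76 in PSM (SD, n = 3).

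A second Igf2r probe did not share the offset of replicate 3. It gave log2 signals of 6.92, 7.16 and 6.96 in CNH, 7.26, 7.20 and 7.08 in TBM, and 8.03, 7.79 and 7.82 in PSM, with no overlap between PSM and the others. Its differences were -0.86 for CNH minus PSM (adjusted p = 0.000553) and -0.70 for TBM minus PSM (adjusted p = 0.00248). Both probes of the gene were therefore called in both comparisons. CNH and TBM differed by -0.11 on the brighter probe and by -0.16 on the other, neither called.

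Peg3 encodes a large zinc finger protein that acts in growth and maternal behaviour and is expressed from the paternal copy. Its log2 signals were 7.82, 7.88 and 8.79 in CNH, 8.17, 8.12 and 8.15 in TBM, and 9.42, 9.22 and 9.10 in PSM. All PSM arrays lay above all others, but replicate 3 of CNH stood much closer to PSM than its partners did. CNH minus PSM was -1.08 (SE 0.21, adjusted p = 0.00539), with -1.60, -1.33 and -0.31 within replicates. With every probe of the array tested and no filter on dim ones, limma's adjusted p was 0.0556 in CNH against PSM and 0.0643 in TBM against PSM, and neither was a call. TBM minus PSM was steadier, at -1.10 (2.14-fold lower, adjusted p = 0.00576), with -1.25, -1.10 and -0.95. The means were 8.16 ± 0.54 in CNH, 8.15 ± 0.02 in TBM and 9.25 ± 0.16 in PSM (SD, n = 3).

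The other tested Peg3 probe was dim and was not called. It gave log2 signals of 4.90, 4.69 and 5.51 in CNH, 5.43, 5.76 and 4.52 in TBM, and 6.34, 6.61 and 5.35 in PSM. In replicates 1 and 2 it too was lowest in CNH and highest in PSM, and in replicate 3 CNH was the highest. Its CNH minus PSM difference was -1.06 (adjusted p = 0.0554). The genes on either side of Peg3 share its control region. Of these, Zim1 was detected on no array and Usp29 on 1.

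**Figure D2:**
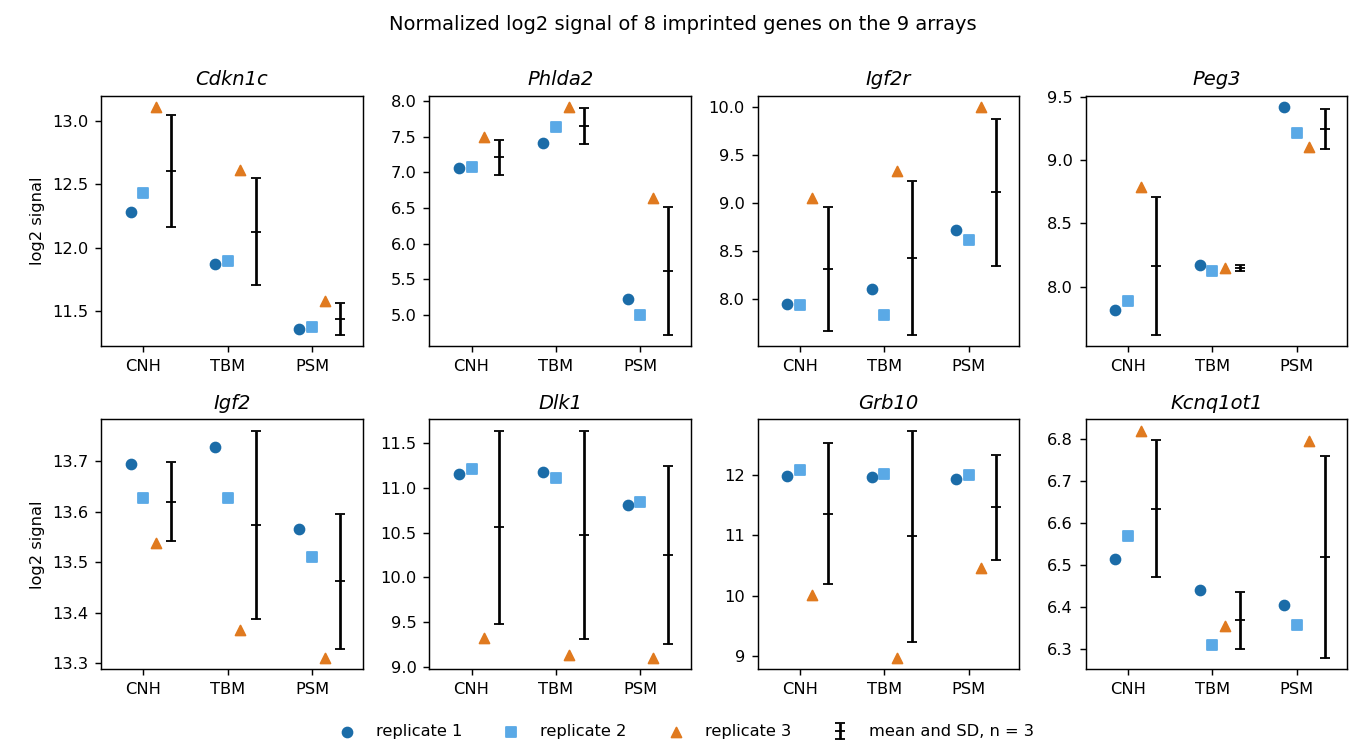
Normalized log2 signal (vertical axis, scaled separately for each gene) of the 4 called genes, above, and of Igf2, Dlk1, Grb10 and Kcnq1ot1, below, on each array of CNH, TBM and PSM, with the mean and SD of the 3 arrays. Cdkn1c and Phlda2 are lowest in PSM, Igf2r and Peg3 are highest there, and for Dlk1 and Grb10 replicate 3 lies apart from replicates 1 and 2 in every region.

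Through the brightest probe of each gene, these calls rest on comparing regions within a replicate. Without the replicate block, limma's adjusted p for CNH against PSM was 0.0963 for Cdkn1c, 0.118 for Phlda2, 1.00 for Igf2r and 0.0984 for Peg3. By these probes 0 of 19 genes were called in CNH against PSM (3 at an unadjusted p under 0.05). The Igf2r value is that of the probe with the replicate 3 offset. It does not cover the second Igf2r probe, whose SDs were 0.13 in CNH, 0.09 in TBM and 0.13 in PSM. Of all 12437 tested probes, 351 were called in that comparison without the block, and 1165 had limma's unadjusted p under 0.05. In the authors' own normalized values with the block, Cdkn1c (1.19 on their log2-like scale) and Peg3 (-0.63) were still called in CNH against PSM. Phlda2 (0.39) and Igf2r (-0.49) kept their direction and lay below the fold limit. Both still passed limma's adjusted p there, at 0.00213 and 0.00323. The scale of those values differs from that of the main fit, so the fold limit is not the same measure on both.

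In TBM against PSM the same 4 genes were called, 2 higher and 2 lower in TBM, which is 21.1% of 19 beside 9.42% of all tested probes (5.37% higher and 4.05% lower). This comparison uses the same PSM arrays as CNH against PSM, so the 2 sets of values are not separate evidence. In CNH against TBM, 0 of 19 imprinted genes were called by limma, beside 1.01% of all tested probes (0.78% higher and 0.225% lower). At an unadjusted p under 0.05 there were 3 of 19, beside 12.5% of all tested probes, so the 3 genes are given as values only. The lowest adjusted p was 0.127. That p belonged to Ppp1r9a, a scaffold gene of the actin cytoskeleton, at 0.57 (95% interval 0.24 to 0.90), with log2 signals of 7.56, 7.13 and 6.91 in CNH and 6.51, 6.89 and 6.49 in TBM. The other 2 genes were Cdkn1c and Commd1, a regulator of copper handling, which was -0.33 in CNH against TBM (95% interval -0.60 to -0.07).

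**Figure D3:**
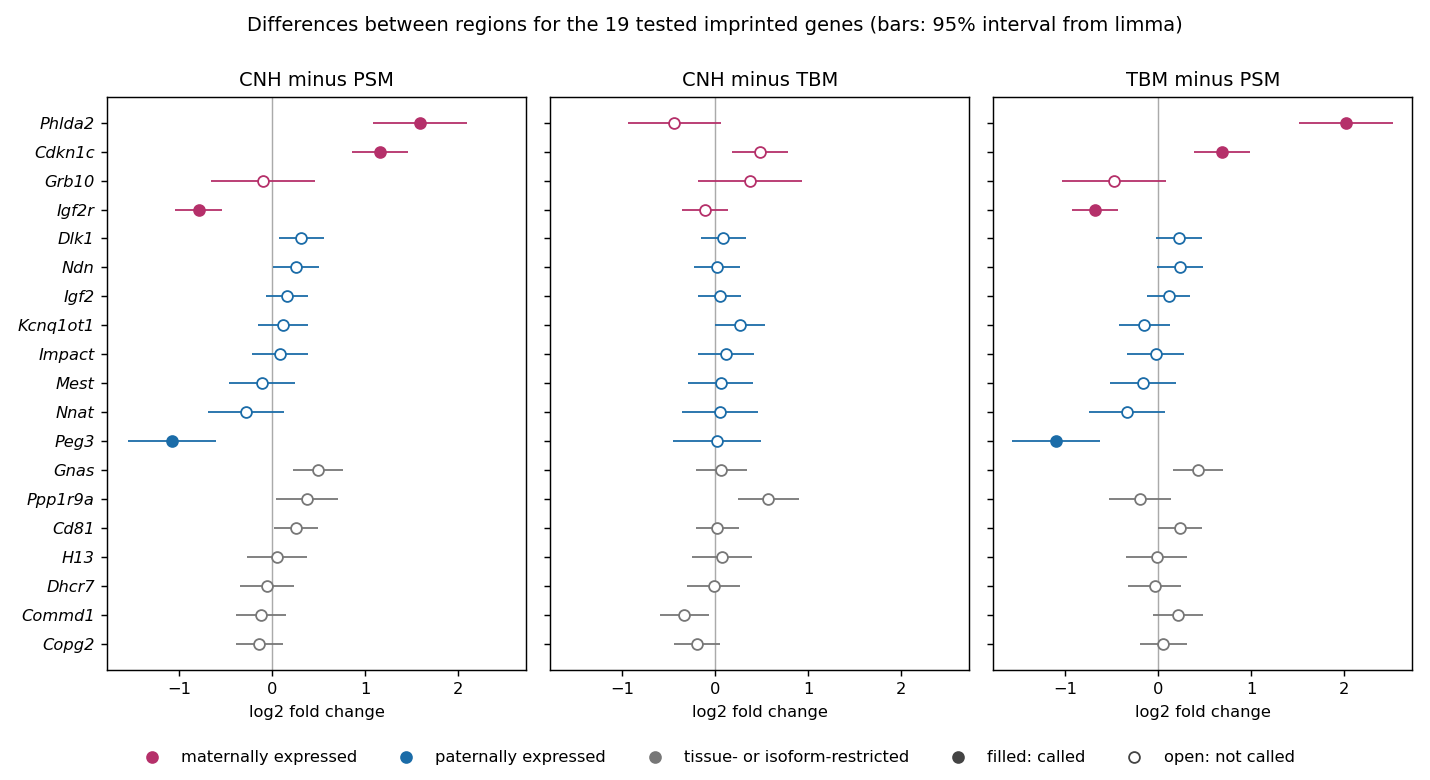
Log2 fold change of the 19 tested imprinted genes (horizontal axis) for CNH minus PSM, CNH minus TBM and TBM minus PSM, with 95% intervals from limma, coloured by parental class, filled where called. Phlda2, Cdkn1c, Igf2r and Peg3 are filled in both comparisons with PSM, and no gene is filled for CNH minus TBM.

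The remaining tested paternally expressed genes were not called between the regions. Igf2, the fetal growth factor, gave 13.69, 13.63 and 13.54 in CNH, 13.73, 13.63 and 13.37 in TBM, and 13.57, 13.51 and 13.31 in PSM. CNH minus PSM was 0.16 (95% interval -0.07 to 0.39), so that a change of 1.5-fold in either direction lay outside the interval. Its unnormalized signal was 9715 to 17473 over the 9 arrays, where the brightest probe of an array reached 28845 to 42163. Ligand and clearance receptor thus had different patterns: Igf2r was lower in CNH and TBM than in PSM, and Igf2 was not called.

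Dlk1 gave 11.15, 11.21 and 9.32 in CNH, 11.17, 11.11 and 9.13 in TBM, and 10.81, 10.84 and 9.10 in PSM. It was higher in CNH than in PSM in all 3 replicates, by 0.31 (95% interval 0.07 to 0.55), and did not pass the adjusted test (adjusted p = 0.0783). A second, dimmer Dlk1 probe gave 0.07 (adjusted p = 0.701), with 0.16, 0.20 and -0.13 within replicates. Ndn, a MAGE family gene of postmitotic neurons, gave 10.25, 10.32 and 12.01 in CNH, 10.30, 10.30 and 11.92 in TBM, and 10.12, 10.15 and 11.54 in PSM. Its difference of CNH from PSM was 0.25 (95% interval 0.01 to 0.50, adjusted p = 0.151).

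Mest, a hydrolase gene of embryonic mesoderm, stood at -0.11 in CNH against PSM (95% interval -0.46 to 0.24). Impact, a regulator of translation, stood at 0.08 (-0.22 to 0.39), and the probe annotated to the noncoding RNA Kcnq1ot1 at 0.12 (-0.16 to 0.39). Kcnq1ot1 is transcribed antisense within Kcnq1, which was detected on a single array, and which strand the probe reads was not determined here. The same holds for the probes of Nnat and H13, which also overlap or enclose other genes.

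Nnat, which encodes the membrane protein neuronatin, gave log2 signals of 8.36, 8.08 and 4.68 in CNH, 7.89, 8.11 and 4.95 in TBM, and 8.71, 8.58 and 4.67 in PSM. Replicate 3 was near background in all regions. CNH minus PSM was -0.28 (95% interval -0.69 to 0.13), and TBM minus PSM was -0.34 (-0.75 to 0.07, adjusted p = 0.293), with -0.82, -0.47 and 0.28 within replicates. Without replicate 3 of all regions, TBM minus PSM was -0.65 (adjusted p = 0.0328), which is a call. With all arrays in the fit, 7 of the 8 tested paternally expressed genes, all but Peg3, had no call in any comparison.

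Among the 4 tested maternally expressed genes Grb10 was the one not called. It encodes an adaptor that dampens insulin and IGF receptor signalling, and is expressed from the paternal copy in neurons. Its log2 signals were 11.98, 12.09 and 10.02 in CNH, 11.96, 12.02 and 8.98 in TBM, and 11.93, 12.00 and 10.46 in PSM. In replicates 1 and 2 all regions lay between 11.93 and 12.09, and in replicate 3 they spread over more than 1 unit, so the interval for CNH minus PSM was wide (-0.11, 95% interval -0.67 to 0.46). A dimmer Grb10 probe stood at 0.25 for CNH minus PSM, the opposite sign, and was not called.

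In the restricted class 0 of 7 genes were called through their brightest probe, beside 11.2% of all tested probes in CNH against PSM. Gnas came close. Gnas encodes the stimulatory G protein alpha subunit together with other transcripts of the locus, which differ in their imprinting. Its brightest probe gave 10.14, 10.12 and 6.12 in CNH, 9.92, 9.95 and 6.30 in TBM, and 9.56, 9.45 and 5.88 in PSM. CNH minus PSM was 0.50 (SE 0.12, adjusted p = 0.0175), past the adjusted p and below the fold limit. Without CNH replicate 3 it was 0.63 (adjusted p = 0.00618), which is a call. TBM minus PSM was 0.43 (adjusted p = 0.0414).

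A dimmer Gnas probe was called in both comparisons with PSM. It gave 5.40, 5.41 and 7.18 in CNH, 5.89, 5.33 and 6.85 in TBM, and 4.91, 4.67 and 6.08 in PSM, so that PSM was the lowest in every replicate. The differences were 0.78 for CNH minus PSM (adjusted p = 0.00542) and 0.80 for TBM minus PSM (adjusted p = 0.00537). The remaining tested Gnas probe stood at -0.07 and 0.10 and was not called. Which transcript each probe reads was not determined here. Counting a gene as called by any tested probe gave 5 of 19 genes in each comparison with PSM, Gnas being the added one. By the same rule 12.9% of the 7820 named genes tested were called in CNH against PSM and 10.9% in TBM against PSM.

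Cd81, a tetraspanin gene at the edge of the Kcnq1ot1 domain, gave 11.28, 11.33 and 12.16 in CNH, 11.23, 11.29 and 12.19 in TBM, and 10.95, 11.01 and 12.05 in PSM. Its difference of CNH from PSM was 0.26 (95% interval 0.02 to 0.49, adjusted p = 0.125). Ppp1r9a stood at 0.38 in CNH against PSM (95% interval 0.04 to 0.71, adjusted p = 0.114). The other restricted genes, H13 (an intramembrane protease), Commd1, Copg2 (a vesicle coat subunit) and Dhcr7 (an enzyme of cholesterol synthesis), lay between -0.14 and 0.05 in CNH against PSM. None of these was called in any of the 3 comparisons.

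Set side by side, the 4 tested maternally expressed genes held 2 calls higher and 1 lower in each comparison with PSM, and the 8 paternally expressed ones 0 higher and 1 lower. Of all tested probes, 6.66% were called higher and 4.54% lower in CNH against PSM, and in TBM against PSM 5.37% and 4.05%. The paternally expressed share (12.5%) was near that of all tested probes called either way, 11.2% and 9.42%. No test was made of these counts, and the classes are small. The median log2 fold change in CNH against PSM was 0.10 for the paternally expressed genes and 0.53 for the maternally expressed ones, against 0.05 for the restricted ones and -0.04 for all tested probes. In TBM against PSM the median was -0.09 for paternally expressed, 0.10 for maternally expressed and 0.06 for restricted genes, against -0.02 for all tested probes. In CNH against TBM it was 0.06 for paternally expressed, 0.13 for maternally expressed and 0.02 for restricted genes, against -0.02 for all.

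The difference of the class medians, paternal minus maternal, was -0.43 in CNH against PSM, -0.08 in CNH against TBM and -0.19 in TBM against PSM. A median of 4 genes that range from -0.79 to 1.59 is fixed by its middle pair, Cdkn1c and Grb10, and no test was made of it. The first of these differences was -0.10 in the authors' normalized values and -0.0065 with undetected genes included. It was 0.15 with the restricted genes other than Gnas and H13 counted as maternal. In CNH against TBM it was 0.15 without TBM replicate 3, and in TBM against PSM -0.037 without TBM replicate 1. The size of these differences, and for both CNH comparisons the sign, thus depended on these choices. Single genes of 1 class went in opposite directions, as Igf2r did against Cdkn1c and Phlda2.

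**Figure D4:**
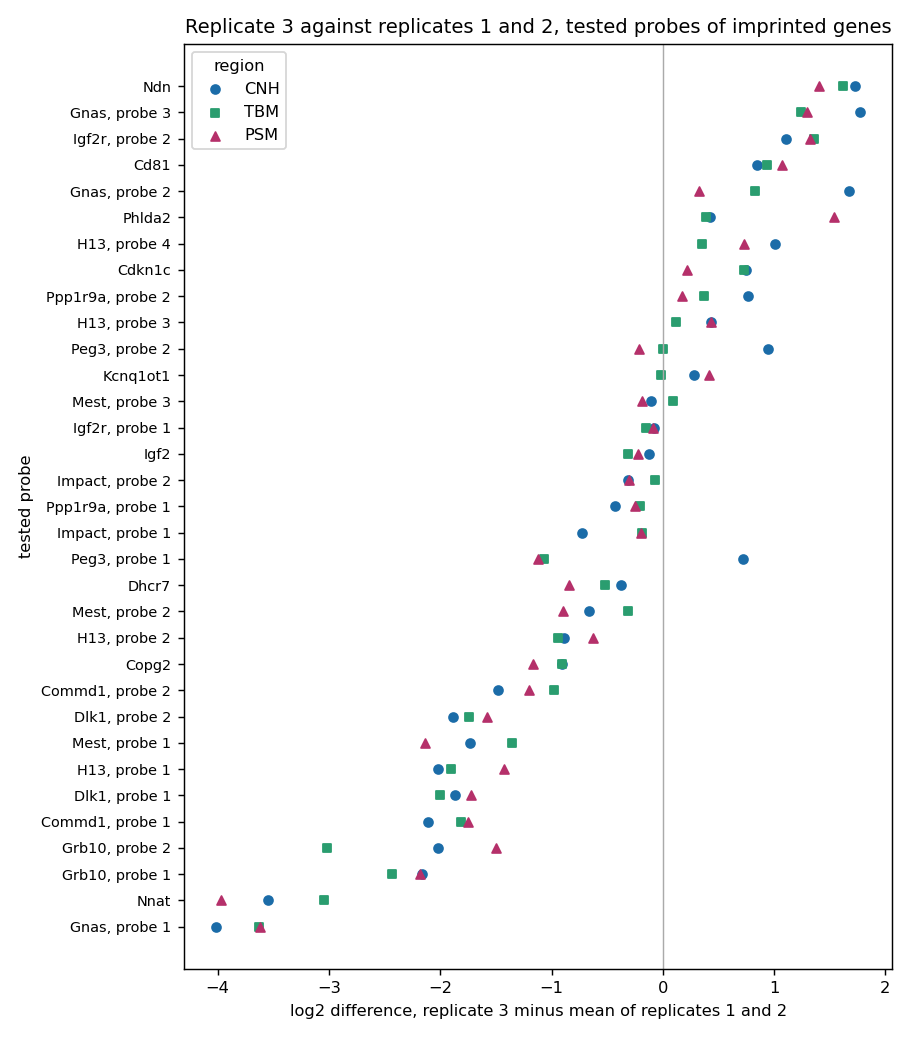
Log2 difference of replicate 3 from the mean of replicates 1 and 2 (horizontal axis) for the 33 tested probes of imprinted genes, in CNH, TBM and PSM, with the probes of a gene numbered in the order plotted. Points of the 3 regions mostly lie together, from -4.01 for a Gnas probe in CNH to 1.77 for another Gnas probe in CNH.

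Some probes of the imprinted genes were among those that set replicate 3 apart. Of their 33 tested probes, 3 were more than 2-fold higher and 9 more than 2-fold lower in replicate 3 in every region. Over all 12437 tested probes the counts were 1408 higher and 1402 lower. In either direction the shares were 36.4% and 22.6%. Both tested probes of Grb10 and of Dlk1 were among the lower ones, and Gnas had a probe in each direction. The probes are thus not separate genes, and no test was made of these counts. Replicate 3 minus the others was -4.01 in CNH, -3.63 in TBM and -3.62 in PSM for the brightest Gnas probe on the log2 scale, and for Nnat -3.54 in CNH, -3.04 in TBM and -3.97 in PSM. Ndn was higher in replicate 3 by 1.72 in CNH, 1.62 in TBM and 1.40 in PSM.

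Probes of 1 gene did not always move together in replicate 3. An untested Gnas probe was detected on the 3 arrays of replicate 3 alone, at 8.03 in CNH, 7.98 in TBM and 7.60 in PSM, with 4.16 to 4.34 on the other 6 arrays. Another was detected on the 6 arrays of replicates 1 and 2 alone, at 7.58 to 8.34, with 4.49 in CNH, 4.30 in TBM and 4.35 in PSM in replicate 3. Igf2r was up by more than 1 unit in replicate 3 on its brighter probe, and differed by -0.08 in CNH, -0.15 in TBM and -0.09 in PSM on the other. Mouse strain, array batch and RNA preparation are not assigned to replicate numbers in the labels and cannot be told apart here.

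Among other imprinted genes, listed from the same domains and from smaller ones, 12 of 47 were tested. Adam23, which encodes a membrane protein of neurons, was higher in CNH than in PSM by 1.64 on the log2 scale and in TBM than in PSM by 1.05 (adjusted p = 0.000648). Cobl, an actin nucleator imprinted beside Grb10 in some tissues, was higher in CNH than in PSM by 0.72 (adjusted p = 0.0228). The list held 2 calls higher and 0 lower in CNH against PSM, 1 and 0 in TBM against PSM, and 0 in CNH against TBM. Over all tested probes, 6.66% were called higher and 4.54% lower in CNH against PSM, so a count this small is not a result about the list. Snurf, which shares its transcript with Snrpn, was at 0.50 for CNH minus PSM (adjusted p = 0.0228), below the fold limit.

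The genes that write, protect or read the imprinting marks gave no call. Of 26 listed, 18 were tested and 0 were called by limma in any comparison. For CNH against PSM, CNH against TBM and TBM against PSM, 11.2%, 1.01% and 9.42% of all tested probes were called. At limma's unadjusted p under 0.05 there were 1, 0 and 0 genes, beside 31.4%, 12.5% and 25.4% of all tested probes. A count of 0 among 18 genes is not a result about the list. The maintenance methyltransferase gene Dnmt1 stood at -0.18 in CNH against PSM, its partner Uhrf1 at 0.0031, and the corepressor gene Trim28 at -0.0028. The median over the 18 genes was 0.00018, against -0.04 for all tested probes. Dnmt3a, Dnmt3l, Dppa3, Tet3 and Hells were detected on no array.

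Partners of Igf2 and Igf2r in IGF signalling were also listed. Of 10 tested, 3 were higher and 0 lower in CNH than in PSM: the insulin receptor gene Insr (1.29), its docking protein gene Irs2 (1.25) and the binding protein gene Igfbp7 (2.26). In TBM against PSM 4 were higher, the same 3 genes and the receptor gene Igf1r (0.77), and 2 were lower, Igfbp4 (-0.83) and Igfbp5 (-2.03). Igfbp5, which encodes a binding protein that holds IGF in the matrix, was the single call of this list in CNH against TBM, at 1.95 (adjusted p = 0.000501). Of all tested probes, 6.66% were called higher and 4.54% lower in CNH against PSM. The shares were 5.37% and 4.05% in TBM against PSM, and 0.78% and 0.225% in CNH against TBM.

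Of the cell cycle inhibitors tested beside Cdkn1c, 4 of 6 listed, Cdkn1a alone was called. The shares of all tested probes just given stand beside this count as well. Cdkn1a encodes p21, a kinase inhibitor of the same family as p57, and is not imprinted. It was higher in CNH than in PSM by 3.61, in CNH than in TBM by 1.68 and in TBM than in PSM by 1.93. Cdkn1b, another member of that family, stood at -0.25 in CNH against PSM and was not called.

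The dissected pieces held more than 1 cell type, and in pooled tissue a change in the number of cells of a type and a change in RNA per cell cannot be told apart. Beside the counts of called marker genes below, 6.66% of all tested probes were called higher and 4.54% lower in CNH against PSM. In CNH against TBM these shares were 0.78% and 0.225%. Endothelial genes moved in the same direction as Cdkn1c and Phlda2: 8 of 11 tested were higher and 0 lower in CNH than in PSM. Their summed linear signal was 7802 to 8359 in CNH, 6825 to 8356 in TBM and 3770 to 4527 in PSM, with Tie1 and Erg detected on no array. The summed signal of the axial progenitor genes was 17374 to 18453 in CNH, 15467 to 16036 in TBM and 1816 to 3346 in PSM.

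Somite, presomitic and surface ectoderm genes moved in the same direction as Igf2r and Peg3. Of the presomitic genes, 4 of 6 were lower in CNH than in PSM. They summed to 902 to 1271 in CNH, 1141 to 1676 in TBM and 1114 to 2551 in PSM, so these sums overlapped between regions. The somite genes, 5 of 5 lower in CNH than in PSM, summed to 241 to 693 in CNH, 251 to 824 in TBM and 1961 to 7846 in PSM, with Pax1, Pax3 and Pax9 detected on no array. The surface ectoderm genes, 3 of 3 lower in CNH than in PSM, summed to 222 to 295 in CNH, 245 to 259 in TBM and 847 to 1223 in PSM, with Perp detected on no array. Notochord genes were higher in 4 of 6 both in CNH against PSM and in CNH against TBM, and neural tube genes in 2 of 3 in each of these. The notochord genes summed to 1340 to 3438 in CNH, 514 to 1610 in TBM and 912 to 2819 in PSM, with Foxa2 and Sox6 detected on no array. The neural tube genes summed to 216 to 281 in CNH, 97.3 to 131 in TBM and 97.4 to 150 in PSM, with Sox1, Sox3, Pax6, Nkx6-1 and Olig2 detected on no array. Erythroid genes were higher in CNH than in PSM in 3 of 8, and gut endoderm genes were higher in 2 and lower in 1 of 5. The part of these cell types in the differences of imprinted genes was not tested.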

How the data were processed

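The deposited table of unnormalized data gave, for each probe and array, a signal intensity on a linear scale and a detection p-value against the negative controls. For the second table, the authors transformed these signals with lumi (variance-stabilizing transformation and robust spline normalization) into values on a log2-like scale, used here only as an alternative. The genome build of the probe annotation is not given in the sources used here.

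Background was corrected by neqc with an offset of 16, which infers the controls from detection p-values, and quantile-normalized log2 signals were used. The offset and background pull differences of dim probes towards 0. Of 45281 probes, 34885 carried 1 gene symbol, 18 several and 10378 none, and only the first kind named a gene. Probes detected (p under 0.01) by every array of 1 region or more, 12437 in number, were fitted by limma 3.58.1 in R 4.3.3, with region means and the replicate number as a block (9 arrays, 4 residual degrees of freedom, prior 5.888), after the study's methods, which used replicate group and batch effects. P-values were adjusted by Benjamini-Hochberg over all tested probes. Calls required an adjusted p under 0.05 and a change of at least 1.5-fold. The fit was also run on simulated data with independent noise drawn from the same model. Such data cannot show the effect of a technical replicate or of replicate numbers that do not match across regions.

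Replicate numbers come from the sample titles. After centring by region, arrays of different regions correlated at 0.858 to 0.898 within numbers 1 and 2, 0.863 to 0.893 between them, 0.936 to 0.964 within number 3, and -0.930 to -0.895 where number 3 met another.

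The brightest probe stood for a gene. Values per array are given for each called gene and for the 6 brightest, and up to 6 called genes are named from each other list. Ppp1r9a, Rian, Dio3 and Gnas, and genes named without a call, were singled out after their values were seen. The members and all lists were chosen with earlier results of these data known. Sequences come from RefSeq promoters of GRCm38.p6, and for the imprinted genes mouse chromosome 18 was left out.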

Additional observations from a re-analysis of the deposited data

How the results depend on the processing

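Of 57 differences (19 genes in 3 comparisons), 47 kept their side of the call in all alternatives that could be run and 10 changed it in at least 1. The sign changed under at least 1 alternative in 20 of the 57, and in 0 of those that were called. Without the replicate block the calls over all probes by limma numbered 351 for CNH against PSM, 0 for CNH against TBM (229 at an unadjusted p under 0.05), and in TBM against PSM 268, against 1393, 125 and 1172 with it, and imprinted genes called numbered 0 in each comparison (3, 1 and 3 at an unadjusted p under 0.05). Without the block, limma's unadjusted p was under 0.05 for 1165 of all tested probes in CNH against PSM and 971 in TBM against PSM. In the deposited normalized values the calls over all probes were 279, 15 and 242, and 2 imprinted genes were called in each comparison with PSM. Without background correction they were 746, 61 and 630. With an offset of 50 they were 884 and 749 in the comparisons with PSM, and with probes detected on all 9 arrays 897, 76 and 762. Without a filter on dim probes 20 probes were called in CNH against TBM, and 31 with replicates 1 and 2 averaged. Leaving out arrays gave 1335 to 1542 calls in CNH against PSM, 18 to 172 in CNH against TBM and 1063 to 1320 in TBM against PSM, with CNH against TBM at 21 without CNH replicate 1, 28 without CNH replicate 2, and 22, 18 and 46 without TBM replicates 1, 2 and 3. They left 4 to 5 and 3 to 4 imprinted genes called in the comparisons with PSM.

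Without the filter Peg3 was no longer called in either comparison with PSM (adjusted p = 0.0556 and 0.0643). Without replicate 3 of all regions, Cdkn1c was not called in TBM against PSM, and Nnat was called lower in TBM (-0.65, adjusted p = 0.0328) and Gnas higher in CNH than in PSM (0.63).

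The paternal minus maternal difference of medians in CNH against PSM was -0.10 in the deposited values, -0.0065 without the filter and -0.52 to -0.34 with arrays left out. With the restricted genes other than Gnas and H13 added to the maternal class it was 0.15. In CNH against TBM the difference was 0.13 without the filter, 0.0057 with replicates 2 and 3 averaged and 0.073 with those restricted genes added. It was 0.098 without replicate 3 of all regions, and -0.11 to 0.15 with arrays left out. In TBM against PSM it was -0.064 without the filter, -0.081 with replicates 1 and 2 averaged, -0.29 without replicate 3 of all regions and -0.35 to -0.037 with arrays left out. The cause of these shifts was not tested. The number of arrays limits the precision, and 16 of 35 genes lay too near background to be tested.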
